A study of Homo sapiens with 6 samples.

Results

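The DNA replication machinery was described through 37 genes whose products license, unwind and copy chromosomal DNA or supply it with nucleotides. They were chosen by name, as rows of the deposited gene table whose symbol is on a written list, and all 37 were found among its 58735 genes. Messenger RNA was sequenced from HEK293 cells, a human embryonic kidney line, in 3 libraries each of 2 lines. One line stably expressed tensin 2, an adaptor protein of focal adhesions, with a tyrosine replaced by glutamate (Y483E), and the other stably expressed tensin 2 with the same tyrosine replaced by phenylalanine (Y483F). Glutamate is commonly used to imitate phosphotyrosine, whereas phenylalanine lacks the hydroxyl group that a kinase would modify. The labels give no untransfected cells, no promoter for the constructs and no statement that a line is a clone or a pool, so the substitution and the history of each line cannot be told apart. The libraries are called biological replicates without a word on separate cultures, so p-values measure only the spread between these libraries. Replicates 1, 2 and 3 of each line carry the numbers 1, 4 and 5 in the submitters' descriptions, whose meaning the labels leave unsaid.

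Replication starts in G1, when the origin recognition complex marks origins and, with CDC6 and CDT1, loads the ring-shaped MCM2-7 helicase onto DNA. In S phase CDC45 and the GINS complex join the ring to form the CMG helicase, which unwinds the fork ahead of DNA polymerases alpha, delta and epsilon. RPA coats the exposed single strands, the RFC complex loads the sliding clamp PCNA, and FEN1 and DNA ligase 1 join the pieces of the lagging strand. Many of these genes are transcribed at the G1 to S transition by E2F factors, which are held back by retinoblastoma family proteins. In RNA pooled over a culture, more cells in S phase and more of a transcript per cell cannot be told apart.

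The promoters of the members carried E2F letters more often than promoters in general, which is why a few are shown. The letters searched were TTTCCCGC, TTTGGCGC, TTTCGCGC, TTCCCGCC and TTGGCGCC on both strands, in the 250 bases before each RefSeq start of GRCh38.p14. Of these, TTTCCCGC can overlap TTCCCGCC, and TTTGGCGC can overlap TTGGCGCC. A promoter entry was matched by symbol for 32 members, and GINS4, MCM4, MCM5, RPA2 and RPA3 had none. The letters stood in 15 of the 32 (46.9%), in 10.7% of the 9004 tested genes with an entry, and in 5.98% of 27305 genes. The 15 were ORC3, CDT1, MCM3, MCM6, MCM7, GINS2, POLA1, POLE, PCNA, RFC3, RFC4, RPA1, RRM1, TYMS and LIG1. Each line below is 30 bases on the gene's own strand, with the E2F letters in capitals, for 7 members called between the lines in a comparison given further down and for PCNA as the member with the smallest difference. They lie at chr6:87590105-87590134 (ORC3, plus strand), chr16:88803754-88803783 (CDT1, plus strand), chr2:135876511-135876540 (MCM6, minus strand), chr7:100101398-100101427 (MCM7, minus strand), chr16:85688967-85688996 (GINS2, minus strand), chr12:132687343-132687372 (POLE, minus strand), chr18:657603-657632 (TYMS, plus strand) and chr20:5126663-5126692 (PCNA, minus strand). By the gene coordinates of the authors' table, the stretches of ORC3, CDT1, MCM7 and GINS2 lie inside the gene. Those of POLE and TYMS lie partly inside it, and those of MCM6 and PCNA lie before it.
ORC3: ctgcagccgcgagggcgcGCGGGAAAtccc
CDT1: GCGGGAAAtttGGCGGGAAccgcgcccgcc
MCM6: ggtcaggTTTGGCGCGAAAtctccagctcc
MCM7: ccggtcacgtggggggcgacgTTTCGCGCc
GINS2: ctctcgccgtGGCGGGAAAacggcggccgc
POLE: ctgggtgggagcGCGCCAAAtttctcccct
TYMS: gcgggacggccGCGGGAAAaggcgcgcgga
PCNA: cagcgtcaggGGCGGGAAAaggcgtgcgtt

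The capitals in ORC3, CDT1, GINS2, TYMS and PCNA include the same letters, GCGGGAAA, and those members differed between the lines by different amounts, as given below. MCM6 had 3 matches within 150 bases of its start, 2 of them overlapping, at chr2:135876444-135876593 on the minus strand.
MCM6: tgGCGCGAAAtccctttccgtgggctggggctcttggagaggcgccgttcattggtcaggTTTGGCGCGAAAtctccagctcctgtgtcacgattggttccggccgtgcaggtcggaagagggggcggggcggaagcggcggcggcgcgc
A CCAAT box (CCAAT, both strands) stood in 20 of the 32 member promoters (62.5%), against 42.1% of tested genes. The CHR letters TTTGAA and TTCGAA, known from genes of G2 and mitosis, stood in 2 of the 32 (6.25%), against 12.7% of tested genes. In a list of G2 and mitosis genes the order was turned, with E2F letters in 2 of 16 promoters and CHR letters in 9 of 16. The median GC content of the windows was 64.8% in the members and 65.2% in the tested genes. A match is a run of letters and no evidence of binding.

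The libraries held between 17204498 and 23284592 reads on genes, recovered from the deposited FPKM values (fragments per kilobase of gene, scaled to the size of the library). Each member had between 561 and 26549 reads in every library. Of the markers of HEK293 cells, VIM had a mean of 64.1 FPKM, NEFL of 42.6 and SALL1 of 6.55, while PAX2 (0.984), LHX1 (0.977) and NEFM (0.238) were under 1. VIM read 62.1, 69.7 and 71.5 FPKM in replicates 1 to 3 of Y483E, and 61.5, 59.7 and 60.3 in those of Y483F. NEFL read 39.1, 47.9 and 49.7 FPKM in Y483E, and 38.04, 39.9 and 41.0 in Y483F. Both were highest in replicates 2 and 3 of Y483E, numbered 4 and 5, as were several members below, and the part of this in the members' values was not tested. None of 5 fibroblast and none of 5 blood markers had a mean of 1 FPKM, with COL1A2, PTPRC, CD3E and HBB at 0 in all 6 libraries. The fibroblast markers summed to 0.687 to 0.779 FPKM in Y483E and 0.722 to 0.848 in Y483F, and the blood markers to at most 0.0634. Of 6 markers of differentiated kidney epithelium, LRP2 alone had a mean of 1 FPKM, UMOD was at 0, and the sums were 0.784 to 1.40 FPKM in Y483E and 1.09 to 1.61 in Y483F. The libraries stood apart by number as well as by line. On the first principal component of all tested genes (40.9% of the variance), replicate 1 of Y483F lay at -5.70, among the Y483E libraries (-13.4 to -4.94) and away from the other Y483F libraries (17.0 and 12.9). On the second (21.6%), the libraries numbered 1 lay at 9.36 (Y483E) and 11.5 (Y483F), and the others from -9.03 to -0.926. The results below are therefore given for all 6 libraries, for those numbered 4 and 5, and for the pair numbered 1.

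All 37 members were expressed at moderate to high levels in both lines. PCNA had the highest mean over the 6 libraries, 259 FPKM, followed by MCM7 at 248, and their ranges overlapped. MCM3 (123 FPKM) was the other member above 100, and ORC2 (9.11), GINS4 (8.73), GINS3 (6.62) and ORC4 (5.40) were the members under 10. Of the 37 members, 36 lay above the median of the tested genes, and ORC4 lay at percentile 44.2. In the order of levels, the ranges of 27 of 36 neighbouring pairs overlapped, so most neighbours were not separated.
Subunits that act as 1 complex were far from equal in FPKM, which is divided by the gene length in the authors' table. Within the MCM2-7 ring, which holds its subunits in equal numbers, MCM7 was 7.35 times as high as MCM5. ORC3 was 4.04 times as high as ORC4 within the origin recognition complex, and RPA2 was 5.45 times as high as RPA3 within RPA. RRM1, the large subunit of ribonucleotide reductase, was 2.33 times as high as the small subunit RRM2. Among the catalytic polymerase subunits, POLD1 (33.6 FPKM) was 2.00 times as high as POLE (16.8). In each of these pairs the gene with the lower FPKM had the longer gene length, such as 7338 bases for MCM5 and 4386 for MCM7. POLE had a length of 16609 bases and POLD1 of 4932, and in replicate 1 of Y483E POLE had more reads (4776) than POLD1 (3027). The part of the gene length in these ratios was not tested.

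**Figure D1:**
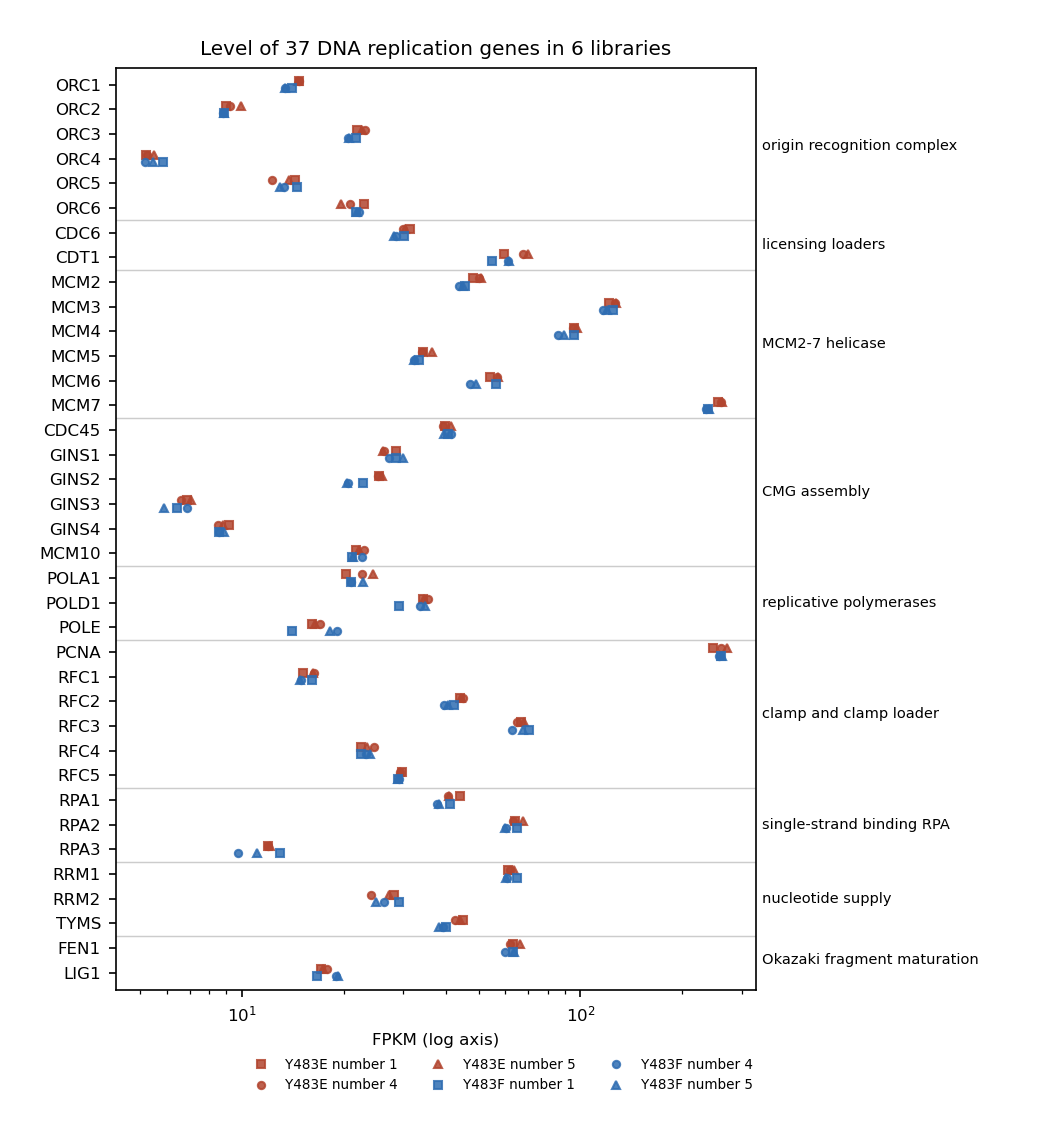
Level of each of the 37 members in FPKM on a log axis, with 1 point per library, coloured by line, shaped by the submitters' number and grouped by role. The points of a member lie close together, while the members spread from 5.40 FPKM (ORC4) to 259 FPKM (PCNA).

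Between the lines, 27 members were higher and 10 lower in Y483E over all 6 libraries, and none passed the test. Log2 fold changes are Y483E over Y483F on the log2(FPKM + 1) scale, tested by limma and adjusted by Benjamini-Hochberg over 12833 genes. They ran from -0.082 to 0.25 with adjusted p from 0.257 to 0.986. The median was 0.056, against 0.007 over all tested genes, of which 52.8% were higher in Y483E. With limma, 0 of 37 members and 0% of all tested genes were called. At an unadjusted p under 0.05, limma gave 6 members, all higher in Y483E (ORC1, MCM2, MCM7, GINS2, RFC2 and TYMS), where 6.51% of all tested genes were higher and 5.7% lower at that level. edgeR's quasi-likelihood test on the recovered reads called no member (0.0438% of its genes) and gave 5 at an unadjusted p under 0.05 (13.4% of its genes). DESeq2 called 1 member, GINS2 (0.946% of its genes), and so did edgeR with the number as a term (1.02%). limma with array weights, which give each library a weight by its spread, called 8 members, all higher in Y483E (14.7% of tested genes).
The 3 Y483E libraries lay above the 3 Y483F libraries in 10 members and below them in 0, where 9.72% and 7.37% of all tested genes did. The 10 were ORC1, ORC2, ORC3, MCM2, MCM5, MCM7, GINS2, RFC2, RFC5 and TYMS. Of the 37 members, 18 differed in mean FPKM by at most 5%, and 4 by more than 10%, namely GINS2 (20%), TYMS (12.2%), CDT1 (10.9%) and MCM2 (10.7%). The median coefficient of variation of the members over the 6 libraries was 4.85%, against 7.60% for all tested genes. It ran from 1.16% in RFC5 to 10.6% in GINS2. The members also had a higher median level, 29.2 FPKM against 6.52, and no comparison at equal level was made. The median SD within a line (log2) was 0.057 in the members and 0.085 in all tested genes. In the neighbouring genes given further down, with a median level of 24.5 FPKM, it was 0.064.

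**Figure D2:**
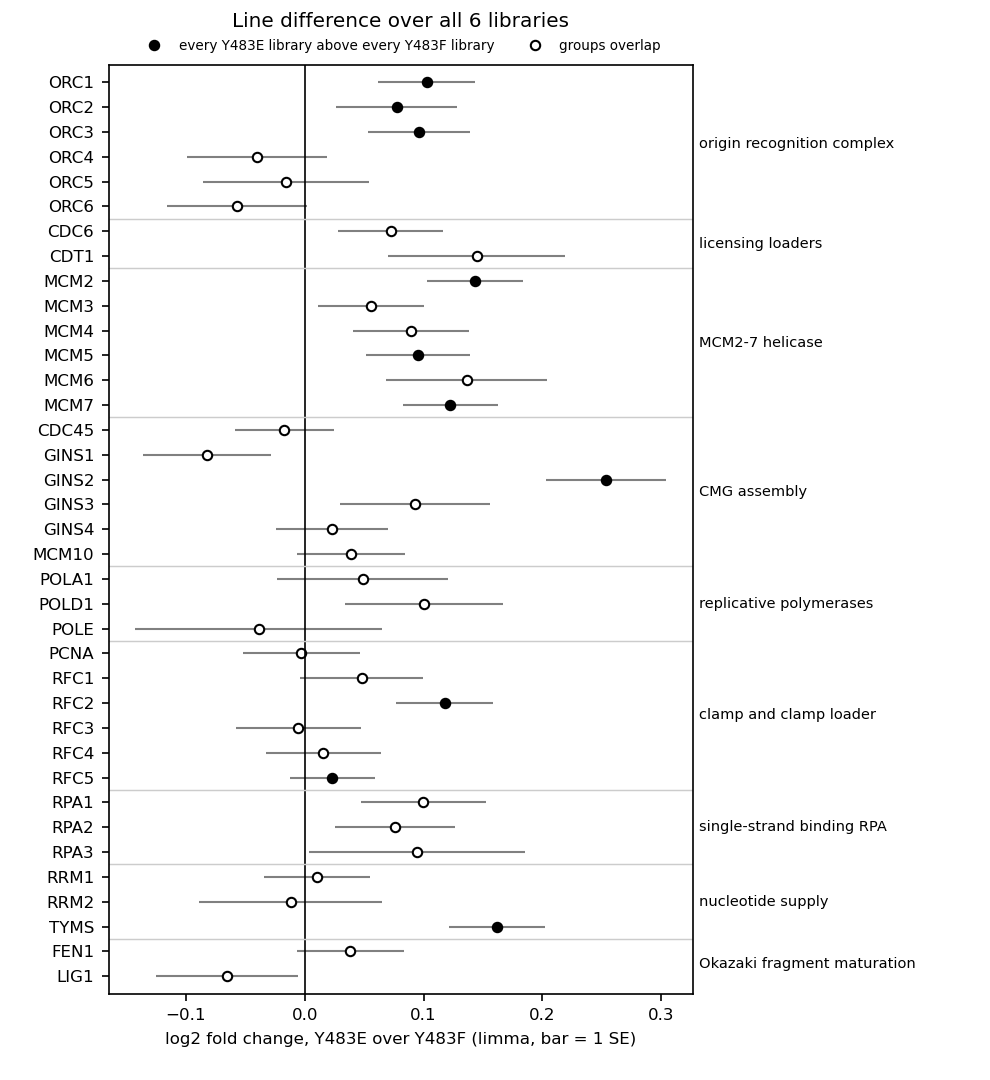
Log2 fold change of each member, Y483E over Y483F, from limma over all 6 libraries, with bars of 1 standard error. Filled points mark the 10 members in which every Y483E library lay above every Y483F library, and open points those whose groups overlap; GINS2 lies farthest out at 0.25, and the 6 MCM2-7 subunits lie to the right of 0.

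All 6 subunits of the MCM2-7 helicase were higher in Y483E on average, with a median log2 fold change of 0.11, although none passed the test over 6 libraries. MCM7 (minus strand of chromosome 7) read 254, 260 and 262 FPKM in replicates 1 to 3 of Y483E, while those of Y483F were at 238, 235 and 239. The groups did not overlap, and the log2 fold change was 0.12 ± 0.040 (SE, n = 3 a line; limma adjusted p = 0.333). MCM2 (chromosome 3) read 48.0, 50.1 and 50.7 FPKM in Y483E, and 45.5, 43.9 and 45.0 in Y483F. Every Y483E library was again above every Y483F library, and the log2 fold change was 0.14 ± 0.040 (limma adjusted p = 0.303).
MCM6 (chromosome 2), whose promoter held 3 E2F matches, had another layout. It read 54.0, 56.5 and 57.0 FPKM in Y483E, and 56.1, 47.1 and 49.2 in Y483F. Replicate 1 of Y483F lay among the Y483E libraries and the other Y483F libraries lay below all of them, so the groups overlapped (log2 fold change 0.14 ± 0.068, limma adjusted p = 0.461). MCM4, part of the catalytic core of the ring, was laid out like MCM6, with 95.7, 94.8 and 97.7 FPKM in Y483E and 95.6, 86.0 and 89.3 in Y483F. MCM5, which forms with MCM2 the gate through which the ring opens, read 34.3, 34.0 and 36.4 FPKM in Y483E and 33.4, 32.1 and 32.2 in Y483F, without overlap. MCM3 overlapped, at 125 ± 3.56 FPKM in Y483E and 120 ± 4.03 in Y483F (SD, n = 3).

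The proteins that load the ring were less uniform. The origin recognition complex had 3 members higher and 3 lower in Y483E, with a median log2 fold change of 0.031. ORC1, the ATPase subunit that rises and falls with the cell cycle, read 14.7, 14.7 and 14.6 FPKM in Y483E and 14.0, 13.4 and 13.4 in Y483F. The groups did not overlap, and the log2 fold change was 0.10 ± 0.041 (limma adjusted p = 0.384). ORC3 read 21.9, 23.1 and 22.7 FPKM in Y483E and 21.8, 20.6 and 20.7 in Y483F, with replicates 1 of the lines nearly level. ORC2 was 9.39 ± 0.515 FPKM in Y483E and 8.84 ± 0.0334 in Y483F, also without overlap. ORC4, ORC5 and ORC6 were lower in Y483E by log2 values of -0.040, -0.016 and -0.057, and their groups overlapped.
CDC6, the ATPase that joins the origin complex in G1, was 30.5 ± 0.753 FPKM in Y483E and 29.0 ± 1.07 in Y483F. CDT1 (chromosome 16), which escorts the MCM ring and is destroyed in S phase, read 59.2, 67.5 and 69.9 FPKM in Y483E and 54.8, 61.0 and 61.4 in Y483F. In each line replicate 1 was the lowest library, and the groups overlapped (log2 fold change 0.14 ± 0.075, limma adjusted p = 0.474).

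Among the proteins that turn the loaded ring into a working helicase, GINS2 had the widest difference of all members. GINS2 (ENSG00000131153, minus strand of chromosome 16 at 85676198 to 85690073 in the authors' table) encodes a subunit of the 4-part GINS complex. It read 25.4, 25.2 and 26.0 FPKM in Y483E and 22.7, 20.6 and 20.5 in Y483F. The Y483E libraries were close together and all above the Y483F libraries, of which replicate 1 was the highest. The log2 fold change was 0.25 ± 0.051 (limma adjusted p = 0.257), and the adjusted p was 0.142 with edgeR and 0.041 with DESeq2. In the authors' deposited table GINS2 had a log2 fold change of 0.26 and an adjusted p of 0.0413. These come from the same reads and nearly equal the DESeq2 values, so they are no separate result.
The other GINS subunits did not share that layout. GINS1 (chromosome 20) was 26.9 ± 1.36 FPKM in Y483E and 28.6 ± 1.30 in Y483F, with a log2 fold change of -0.082, the lowest of the members. GINS3 was 6.86 ± 0.231 FPKM in Y483E and 6.38 ± 0.495 in Y483F, and GINS4 was 8.81 ± 0.318 and 8.65 ± 0.169. CDC45, the partner of GINS in the CMG helicase, was 40.1 ± 1.21 FPKM in Y483E and 40.6 ± 0.928 in Y483F. MCM10, which activates the assembled helicase, was 22.3 ± 0.637 FPKM in Y483E and 21.6 ± 0.833 in Y483F. All 5 of these groups overlapped.

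Of the catalytic polymerase subunits, POLE and POLD1 were lowest in replicate 1 of Y483F, and none had groups apart. POLE (chromosome 12), the leading-strand polymerase, read 16.1, 17.0 and 16.5 FPKM in Y483E and 14.1, 19.1 and 18.2 in Y483F. Replicate 1 of Y483F was the lowest of the 6 and the other Y483F libraries were the highest, so the mean difference was near 0 (log2 fold change -0.039 ± 0.10, limma adjusted p = 0.904). POLD1, the lagging-strand polymerase, read 34.3, 35.5 and 34.5 FPKM in Y483E and 29.2, 33.5 and 34.7 in Y483F. Replicate 1 of Y483F was again the lowest library, and the groups overlapped. POLA1, which with primase starts each new strand, was 22.5 ± 2.10 FPKM in Y483E and 21.6 ± 1.00 in Y483F.
PCNA (chromosome 20), the sliding clamp, read 246, 261 and 271 FPKM in Y483E and 259, 257 and 262 in Y483F. The Y483F libraries lay within the range of the Y483E libraries, and the log2 fold change was -0.0027 ± 0.049 (limma adjusted p = 0.986). Of the clamp loader subunits, RFC2 read 44.1, 44.9 and 44.2 FPKM in Y483E and 42.4, 39.5 and 40.6 in Y483F, without overlap (log2 fold change 0.12 ± 0.041, limma adjusted p = 0.351). RFC5, the steadiest member, was 29.4 ± 0.309 FPKM in Y483E and 29.0 ± 0.127 in Y483F, a difference of 1.68% without overlap. RFC1, RFC3 and RFC4 differed by log2 values of 0.048, -0.0055 and 0.016, and their groups overlapped.
The 3 RPA subunits, which bind single-stranded DNA as a trimer, were each higher in Y483E with overlapping groups. RPA1 was 41.9 ± 1.96 FPKM in Y483E and 39.0 ± 1.82 in Y483F, and RPA2 was 65.0 ± 2.42 and 61.7 ± 3.01. RPA3 was 12.0 ± 0.129 and 11.2 ± 1.61 FPKM, with all of its wider spread in Y483F, where it read 12.9, 9.70 and 11.1.

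In the nucleotide supply, the groups were apart for thymidylate synthase and overlapped for both subunits of ribonucleotide reductase. TYMS (ENSG00000176890, chromosome 18 at 657604 to 673578), which makes thymidylate, read 45.0, 42.6 and 44.2 FPKM in Y483E and 40.0, 39.3 and 38.2 in Y483F. The groups did not overlap, and the log2 fold change was 0.16 ± 0.041 (limma adjusted p = 0.267). RRM1 was 62.3 ± 1.25 FPKM in Y483E and 61.9 ± 2.60 in Y483F, and RRM2 was 26.5 ± 2.13 and 26.7 ± 2.15. FEN1, the flap nuclease, was 63.8 ± 2.05 FPKM in Y483E and 62.1 ± 2.13 in Y483F. LIG1, the ligase that seals Okazaki fragments, was 17.4 ± 0.382 FPKM in Y483E and 18.3 ± 1.37 in Y483F.
The authors' deposited table lists 5 members among its 1652 genes. Beside GINS2 these were MCM7 (log2 fold change 0.12, adjusted p 0.196), MCM2 (0.15, 0.203), TYMS (0.17, 0.234) and CDT1 (0.15, 0.42), all higher in Y483E in the authors' deposited table. The largest unadjusted p in that table was 0.04999, so being listed there is not a call. DESeq2, run here, gave an unadjusted p under 0.05 in 5 of 37 members and in 1425 of 12833 tested genes.

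**Figure D3:**
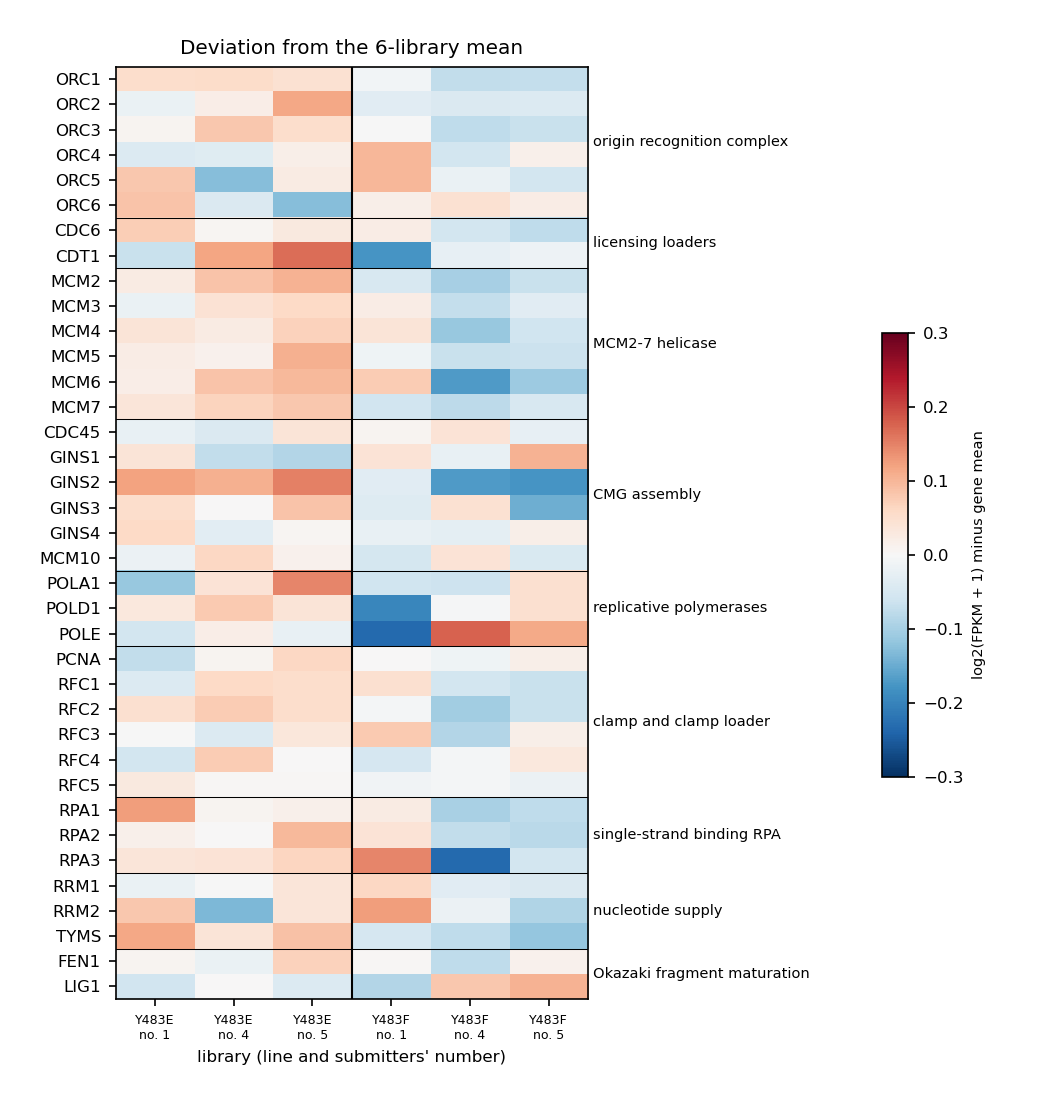
Deviation of each member from its mean over the 6 libraries, on the log2(FPKM + 1) scale, as a colour from blue (below) to red (above), with members in rows by role and libraries in columns by line and submitters' number. The MCM2-7 rows are above their mean in Y483E numbers 4 and 5 and below it in Y483F numbers 4 and 5, while Y483F number 1 is above the mean in MCM6 and lowest in POLE and POLD1.

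The median deviation of the 37 members from their own means was 0.023, 0.020 and 0.053 (log2) in replicates 1 to 3 of Y483E, while those of Y483F were at -0.002, -0.055 and -0.046. Replicate 1 of Y483F thus lay between the Y483E libraries and the other Y483F libraries. For the MCM2-7 subunits alone the Y483E medians were 0.024, 0.055 and 0.089, while those of Y483F were 0.005, -0.089 and -0.061.
In the libraries numbered 4 and 5 alone (2 a line, a choice made with the split by number in view), more members were called. Here 30 members were higher in Y483E and the median log2 fold change was 0.094, against 0.015 over all tested genes. limma called 3 members, all higher in Y483E, where 5.71% of tested genes were called, 2.7% higher and 3.01% lower. These were GINS2 (0.30 ± 0.035, limma adjusted p = 0.032), MCM6 (0.23, limma adjusted p = 0.0372) and MCM2 (0.18 ± 0.031, limma adjusted p = 0.0458).
edgeR on the recovered reads of these 4 libraries called 10 members higher in Y483E, ORC3, CDT1, MCM2, MCM4, MCM5, MCM6, MCM7, GINS2, RFC2 and TYMS, where 7.07% of its genes were called higher. It called 1 member lower, POLE, where 7.98% of its genes were called lower and 15% in all. The MCM2-7 ring gave 5 of the 10. Their edgeR log2 fold changes ran from 0.13 ± 0.039 in MCM5 (edgeR adjusted p = 0.0449) to 0.23 ± 0.037 in MCM6 (edgeR adjusted p = 0.000753), and MCM3 had 0.10 (edgeR adjusted p = 0.0827). GINS2 had a log2 fold change above all of these (0.31 ± 0.048, edgeR adjusted p = 0.000594). CDT1 had 0.16 ± 0.036 (edgeR adjusted p = 0.00815), TYMS 0.16 ± 0.043 (edgeR adjusted p = 0.0222) and POLE -0.16 ± 0.039 (edgeR adjusted p = 0.0127). Of the 11 called members, 9 had a promoter entry and 7 of these held E2F letters, against 8 of 23 among the other members. The 7 include POLE, which was called lower, while MCM2 and RFC2 had an entry without the letters. A link between the letters and the line difference was not tested.

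The pair of libraries numbered 1, with 1 a line and no test, looked otherwise. There 22 members were higher in Y483E and the median log2 difference was 0.012, against -0.004 over all tested genes. The directions in this pair and in the libraries numbered 4 and 5 were opposite for 16 of 37 members, higher in both for 18 and lower in both for 3. GINS2 (0.16), TYMS (0.17), CDT1 (0.11) and MCM7 (0.093) were higher in Y483E in this pair too, while MCM6 (-0.055), MCM3 (-0.042) and PCNA (-0.075) were lower.
The interaction of line and number tests whether the line difference itself differs between the pair numbered 1 and the others. With limma it called 0 members (0.0623% of tested genes), and 8 members had an unadjusted p under 0.05 (15.9% of tested genes). With edgeR it called 2 members, MCM6 (-0.29, edgeR adjusted p = 0.0311; limma adjusted p = 0.225) and POLE (0.34, edgeR adjusted p = 0.0141; limma adjusted p = 0.228), where 2.01% of its genes were called. Between the libraries numbered 1 and those numbered 4 and 5, with the line in the fit, CDT1 was the only member called, and only by edgeR (-0.20, edgeR adjusted p = 0.0386; limma adjusted p = 0.119), where 1.4% of its genes were called. limma called 0% of all genes there and gave 5 members at an unadjusted p under 0.05 (18.8% of tested genes). Only 1 library of each line carries number 1, so the number and the library cannot be told apart.

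**Figure D4:**
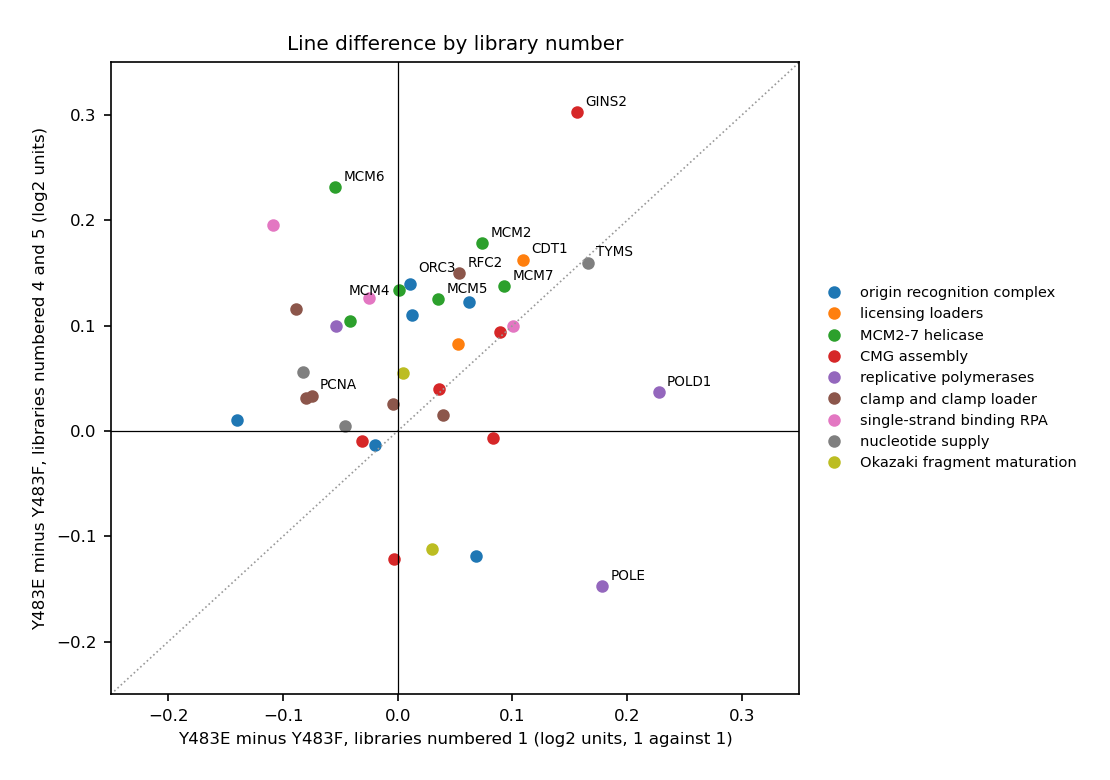
Log2 difference between the lines for each member in the pair of libraries numbered 1 (horizontal) against the libraries numbered 4 and 5 (vertical), with 1 point per member coloured by role and a dotted line where both are equal. GINS2, TYMS and CDT1 lie above 0 on both axes, MCM6 lies at -0.055 across and 0.23 up, and POLE lies at 0.18 across and below 0 on the vertical axis.

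Genes that work beside these members were about as often lower as higher in Y483E. Of 86 tested genes on 7 such lists, 42 were higher and 44 lower in Y483E, with a median log2 fold change of -0.001 and none called by limma over 6 libraries. At an unadjusted p under 0.05, limma gave 7 of them higher and 6 lower, near the shares of all tested genes (6.51% and 5.7%). The polymerase accessory subunits had 5 higher and 3 lower (median 0.053), and the genes of fork protection and clamp unloading 12 higher and 3 lower (0.038). Licensing control and origin firing had 6 higher and 8 lower (-0.021), the E2F and pocket proteins 4 and 9 (-0.028), and the G2 and mitosis genes 7 and 13 (-0.024).
E2F1, a transcription factor of the G1 to S transition, read 49.2, 49.2 and 48.9 FPKM in Y483E and 49.9, 56.2 and 55.2 in Y483F. All Y483F libraries were above all Y483E libraries, the opposite order to MCM2, MCM7 and GINS2, and the log2 fold change was -0.13 (limma adjusted p = 0.401). MCM8, a helicase of recombination that is no part of the MCM2-7 ring, was 9.42 ± 0.823 FPKM in Y483E and 11.5 ± 0.161 in Y483F (log2 fold change -0.26 ± 0.063, limma adjusted p = 0.262). MCM8 had an adjusted p of 0.0335 in the authors' deposited table, and of 0.0335 with DESeq2 here on the same reads. TOP2A, the topoisomerase that untangles replicated DNA, was 110 ± 0.301 FPKM in Y483E and 100 ± 1.72 in Y483F (0.14, limma adjusted p = 0.279). With edgeR on replicates 2 and 3 of each line, 6 of these genes were called higher and 9 were called lower in Y483E, of 88, where 7.07% and 7.98% of all its genes were. The 6 included TK1 (0.21) and DUT (0.18), which like TYMS serve thymidylate supply, and the 9 included E2F1 (-0.19), MCM8 (-0.36) and the proliferation marker MKI67 (-0.25). TK1, DUT and MKI67 were picked after their values were seen.

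On some chromosomes most genes leaned to one line, and members there did so in part. Of 182 tested genes on chromosome 18, which carries TYMS, 163 were higher in Y483E, with a median log2 fold change of 0.12 beside the 0.16 of TYMS. Of 349 tested genes on chromosome 20, which carries PCNA, GINS1, MCM8 and E2F1, 278 were lower in Y483E, with a median of -0.095 beside the -0.082 of GINS1 and the -0.0027 of PCNA. Of 233 tested genes on chromosome 13, which carries RFC3, 163 were lower in Y483E, with a median of -0.049 beside the -0.0055 of RFC3. Chromosome 16, with 4 members, leaned less, with 326 of 597 tested genes lower. Its median was -0.023, beside 0.25 for GINS2, 0.14 for CDT1, 0.093 for GINS3 and -0.057 for ORC6. Other chromosomes with members leaned by similar medians. On chromosome 7 (MCM7, RFC2, RPA3, ORC5) 384 of 643 tested genes were higher in Y483E (median 0.023). On chromosome 2 (MCM6, ORC2, ORC4, RRM2) 469 of 784 were (0.022), on X (POLA1) 285 of 440 (0.032), and on 4 (RFC1) 275 of 447 (0.025). On chromosome 22 (MCM5, CDC45) 201 of 333 were lower (-0.028). The part of the chromosome in these values was not tested.
Genes that share ground with members also bear on single values, since the protocol names both a directional and a non-directional library and reads of opposite strands may not be separable. A gene on the opposite strand overlapped 17 members, and in 11 of them it had at least 1 FPKM. TYMS overlapped TYMSOS (4.31 FPKM, 737 shared bases) and ENOSF1 (3.54 FPKM, 3255 shared bases), both low beside the 41.5 FPKM of TYMS. POLA1 overlapped along 678 bases the pseudogene EEF1B2P3, whose 25.9 FPKM were above the 22.0 of POLA1. It read 25.7, 30.6 and 29.6 FPKM in Y483E and 25.2, 22.8 and 21.8 in Y483F (log2 fold change 0.28, limma adjusted p = 0.302). RPA3 lay with 77897 bases opposite UMAD1 (2.79 FPKM), and FEN1 opposite TMEM258 (15.3 FPKM, 166 bases) and on the same strand as FADS2 (11.6 FPKM, 4265 bases). RFC5 overlapped WSB2 (9.52 FPKM), RPA1 overlapped SMYD4 (4.58) and AC130689.1 (1.39), ORC4 overlapped ACVR2A (1.69) and MCM7 overlapped AP4M1 (2.77), all on the opposite strand, and RFC3 overlapped AL161891.1 (2.03) on its own. GINS2 shared 7 bases with GSE1, and MCM2 shared 45 bases with TPRA1. RFC4 shared 21 bases with EIF4A2, the abundant translation helicase (40.4 FPKM). MCM7 carries MIR25, MIR93 and MIR106B in its introns on the same strand.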

How the data were processed

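Poly-A RNA of 6 HEK293 libraries, 3 a line, was measured by sequencing. The submitters' processing notes name featureCounts 1.5.0-p3, HISAT2 2.0.5, StringTie 1.3.3b, DESeq and DESeq2, with no role given. The sources used here give no genome build, and the coordinates of 58690 of 58735 genes, with all 37 members, were those of GENCODE 29 on GRCh38. The authors deposited FPKM values for all genes. For 1652 genes the authors also deposited read counts, a signal of counts divided by a size factor per library, log2 fold changes, and p-values with adjusted p-values.

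Multiplying FPKM by gene length and by a library total worked out from the listed counts gave whole reads, within 0.01, for 100% of values, and equalled the authors' counts for all 1652 genes, a match that is partly built in. These recovered reads, 17204498 to 23284592 per library, limit precision for counting error only. Genes whose mean reached 1 FPKM were tested with limma 3.58.1 (eBayes with trend) on log2(FPKM + 1), two-sided, with a Benjamini-Hochberg adjusted p of at most 0.05 over 12833 genes. The pseudocount of 1 understates the change of low genes. edgeR 4.0.16 (quasi-likelihood, TMM) and DESeq2 1.42.0 were run on recovered reads under R 4.3.3, as alternatives. The fits were tested on simulated data. Other alternatives were the pseudocount, the filter, scaling, array weights, leaving out each library, a number term and a replicate block. Promoter letters were searched in RefSeq promoters of GRCh38.p14. The members, lists and the split by number were chosen with earlier results of these data known, so no p was adjusted over a list. All members were named. In each context list the rule named up to 4 genes with an adjusted p of at most 0.05 in limma or in the authors' table, or else the 2 with the highest FPKM. It also named genes overlapping members. Of these, those with a mean of at least 1 FPKM are given in the text, a limit chosen after their values were seen. The count and summed level over the whole HEK293 marker list are not reported here, since they need an item that is left out.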

Additional observations from a re-analysis of the deposited data

Results flagged for a closer look

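For 2 members the line difference itself differed between the pair of libraries numbered 1 and the libraries numbered 4 and 5, by edgeR's test of the interaction over all genes. The interaction of MCM6 was -0.29 on the log2 scale (edgeR adjusted p = 0.0311). MCM6 was lower in Y483E in the pair numbered 1 (-0.055) and higher in the libraries numbered 4 and 5 (0.23 with edgeR). The interaction of POLE was 0.34 (edgeR adjusted p = 0.0141). POLE was higher in Y483E in the pair numbered 1 (0.18) and lower in the libraries numbered 4 and 5 (-0.16 with edgeR). With limma the same tests gave adjusted p of 0.225 for MCM6 and 0.228 for POLE. Both rest on 1 library a line with number 1, which was assumed to vary like the others.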

How the results depend on the processing

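With limma over all 6 libraries no gene was called, and none was with another pseudocount, filter or scaling, a number term, a replicate block or any 1 library left out (0 genes each). Array weights, whose estimation stopped before it converged, called 1888 genes and 8 members. edgeR called 7 genes, 14 with DESeq2 size factors, 671 and 1 member without a filter, 169 and 1 member with a number term, and from 1 to 1000 genes and 0 to 3 members with 1 library left out. The 1000 genes and 3 members (MCM6, GINS2 and POLE) came without Y483F replicate 1, and 174 genes without Y483E replicate 1. DESeq2 called 126 genes and 1 member. In the libraries numbered 4 and 5 limma called 733 genes and 3 members, and edgeR 2454 and 11. The cause of these differences was not tested.

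The median log2 fold change of the members was 0.094 (limma) and 0.097 (edgeR) in the libraries numbered 4 and 5 and 0.012 in the pair numbered 1. With 1 library left out it ran from 0.040 to 0.080 with limma and from 0.037 to 0.078 with edgeR. Number 1 against 4 and 5 called 14 genes with a filter at 5 FPKM and 231 with edgeR, against 0. The interaction called 347 genes with edgeR, against 8 with limma.

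limma over all 6 libraries called no member, so there was no call that another setting could reverse. GINS2, MCM2, MCM7 and TYMS were higher in Y483E in all 31 settings, MCM6 in 30, and POLE was lower in 27. All settings reuse the same 6 libraries, so they are no separate support. In GINS2, MCM2, MCM7 and TYMS the groups did not overlap, so leaving out libraries could not turn their direction with limma. Same-numbered libraries deviated from their line means with correlations of 0.056, 0.139 and -0.095, and differently numbered ones from -0.263 to 0.206. No pairing by number stood out in these values, which cannot exclude a shift shared by number. With the replicate block limma called 0 genes and edgeR 6, no member among them, and the median of the members was 0.056. edgeR with a number term, with the block, in the libraries numbered 4 and 5, or with libraries left out was chosen after seeing the data.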
